A study of Homo sapiens with 12 samples.

Results

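The TNF ligand and receptor superfamily was read in poly(A) RNA-seq libraries of cells derived from KMS-11, a human line of multiple myeloma, the cancer of antibody-secreting plasma cells. All 12 libraries came from TKO cells, which carry the genotype label KMS-11 WHSC1(+/-). WHSC1 is an older symbol of NSD2, a methyltransferase of histone H3 lysine 36. The 4 groups, each of 3 biological replicates, were TKO cells with no vector (TKO), and TKO cells with a vector for wild-type NSD2 (WT), for NSD2 with the substitution D1240A, or for NSD2 with F1295A, both in the C-terminal part of the enzyme. TKO cells with an empty vector were not analysed here, so the vector and its NSD2 cannot be told apart in a comparison with TKO, and all 3 such comparisons share the same TKO libraries. The labels do not say which promoter drives the vectors or whether a line is 1 clone. Changes were asked of 6 pairs of groups: each vector line against TKO, each substitution against WT, and the 2 substitutions against each other.

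The family was taken as the protein-coding genes whose symbol starts with TNFRSF or TNFSF, together with TNF, LTA, LTB, LTBR, CD27, CD40, CD70 and FAS, leaving out TNFRSF17 and TNFRSF13B. That gave 39 of 19664 protein-coding genes and of 60504 features in all. By role, 16 are ligands, 6 are receptors with a death domain, 13 are receptors that bind TRAF adaptors and 4 are decoy receptors. Ligands of this family form trimers, on the cell surface or shed from it, and cluster their receptors on the same or a neighbouring cell. Receptors with a cytoplasmic death domain can assemble FADD, RIPK1 and caspases, while TRAF-binding receptors pass the signal to the IKK complex and the canonical or alternative NF-kB pathway. Decoy receptors hold ligand without a full signalling tail. NF-kB fed by receptors of this family is a known survival pathway of plasma cells and myeloma.

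Of the 39 genes, 17 reached 0.5 FPKM (fragments per kilobase of transcript, scaled to the mapped total of the library) in at least 3 libraries and were tested, as were 14391 genes in all. These 17 were 4 of the 16 ligands (CD70, LTB, TNFSF9 and TNFSF10), 5 of the 6 death domain receptors (FAS, TNFRSF1A, TNFRSF10A, TNFRSF10B and TNFRSF21), 6 of the 13 TRAF-binding receptors (TNFRSF1B, TNFRSF4, TNFRSF11A, TNFRSF12A, TNFRSF14 and TNFRSF18) and 2 of the 4 decoys (TNFRSF10C and TNFRSF10D). TNFRSF10C passed only through its WT level, and TNFRSF4 only through TKO and 1 other library. Counts over the 17 are therefore given as a description. A gene is said to rise or fall where limma gave a Benjamini-Hochberg adjusted p under 0.05 over all tested genes. Levels are FPKM rescaled between libraries, and changes are log2 differences of FPKM + 0.5 with their standard error (SE).

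D1240A replicate 2 stood apart. Structural RNA classes (ribosomal, small nuclear and similar) made up 63.7% of its deposited FPKM sum, against 1.91% to 3.01% in the other 11 libraries, and its log2 scaling factor was -0.3, against -0.00484 to 0.0645. The main results for D1240A are therefore given below with and without it. NSD2 measured 58.9, 58.6 and 62.7 FPKM in TKO, 189, 188 and 195 with wild-type NSD2, 242, 259 and 250.3 with D1240A and 172, 161 and 159 with F1295A, so every vector line carried more NSD2 mRNA than TKO and the 3 vector lines also differed among themselves. Of 7 plasma cell markers, IRF4, JCHAIN, MZB1, PRDM1 and XBP1 were at 1 FPKM or more in all 12 libraries, and CD38 (0.16 to 1.2 FPKM) and SDC1 (0.129 to 4.29) were low. Of 20 markers of T, NK, myeloid, stromal, endothelial and epithelial cells, CD3E, EPCAM, COL1A1 and PDGFRB reached 0.5 FPKM in some library. Several of these moved with the groups. EPCAM and KRT19, all from EPCAM, summed to 1.24 to 1.39 FPKM in TKO and 2.57 to 2.84 in WT. They summed to 1.5 to 1.94 in D1240A and 1.27 to 1.73 in F1295A. The 4 stromal markers summed to 1.4 to 1.86 in TKO and WT, 2.76 to 4.0 in D1240A and 1.97 to 2.43 in F1295A. COL1A2 was at 0 throughout. COL1A1 was lower in WT (0.1655 to 0.6739 FPKM) than in TKO (0.7574 to 1.224). PDGFRB was higher in WT (1.143 to 1.441) than in TKO (0.4429 to 0.7287). In D1240A PDGFRB was 1.179, 3.04 and 1.588 FPKM, and the stromal sum of 4.0 was that of replicate 2. Among the plasma cell markers SDC1 was at 3.83 to 4.29 FPKM in TKO and under 0.4 in every vector library, and the 7 summed to 2240 to 2440 in TKO and 3710 to 4900 in the vector lines, mostly JCHAIN. Their part in the results was not tested. In bulk RNA, fewer cells with a transcript and less transcript per cell cannot be told apart.

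FAS was the most abundant member in every group, with means of 92.7 to 113 FPKM. TNFRSF1B (31.6 to 62.8) and TNFRSF14 (23.6 to 25.6) followed, and TNFRSF18 reached 35.4 in TKO alone. The remaining 13 tested genes stayed under 20 FPKM in every library. The most abundant ligand was CD70, at 7.47 to 19.2 FPKM by group. The plot of all tested members by library shows the groups apart for some genes and on top of each other for others.

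**Figure D1:**
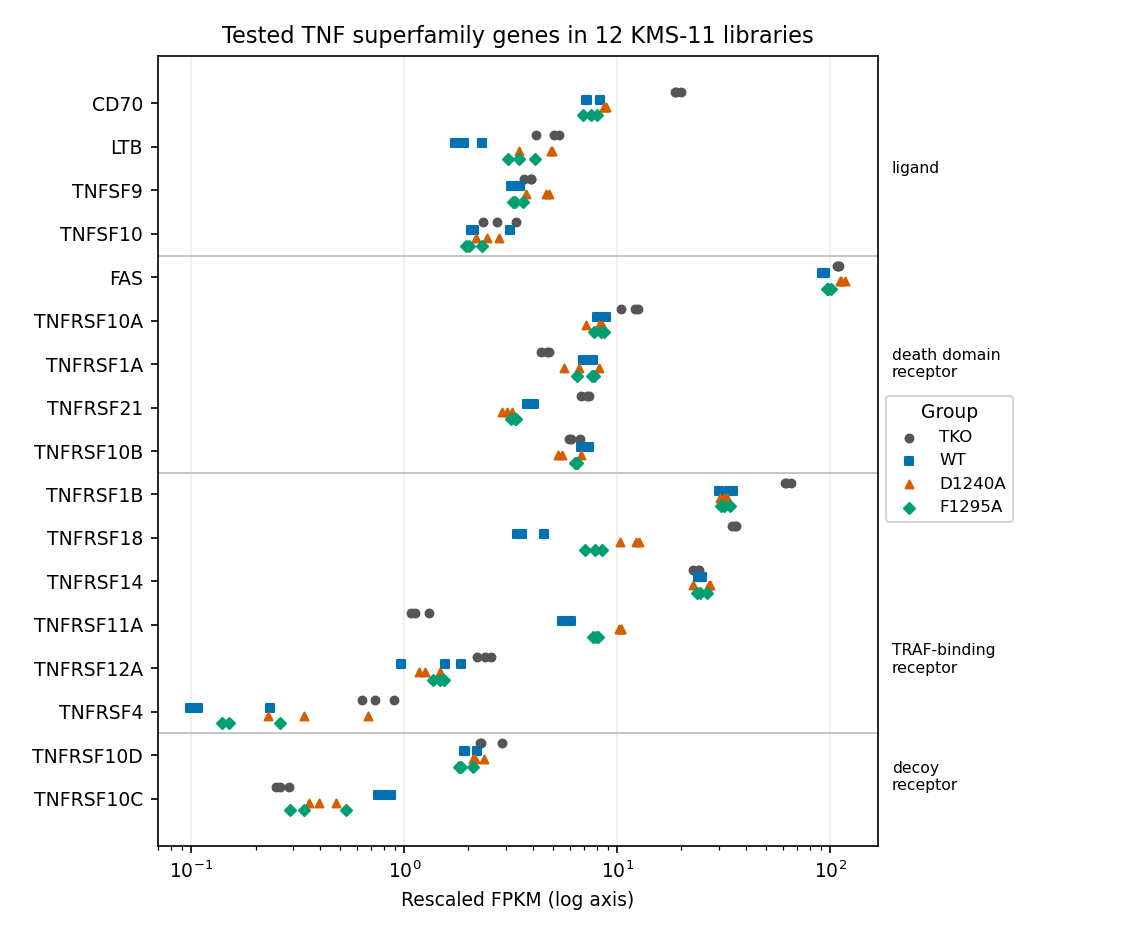
Rescaled FPKM of the 17 tested family genes (log axis) in each of the 12 libraries, by role, with 1 symbol per library and a color and shape per group. FAS lies near 100 FPKM in all groups, while TNFRSF18 and TNFRSF11A spread furthest between groups and the groups of TNFRSF14 overlap.

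Promoters are shown for the member that fell most against TKO (TNFRSF18), the one that rose most (TNFRSF11A), an abundant receptor lower in all vector lines (TNFRSF1B) and the ligand whose fall differed most between WT and the substitutions (LTB). They run 250 bases before to 50 bases after the start site, 5′ to 3′ in the gene's direction, from RefSeq on GRCh38.p14: LTB at chr6:31582376-31582675 on the minus strand, TNFRSF18 at chr1:1206543-1206842 on the minus strand, TNFRSF1B at chr1:12166741-12167040 on the plus strand and TNFRSF11A at chr18:62325060-62325359 on the plus strand. Capitals mark matches to the NF-kB consensus of 10 letters (kB motif).
LTB: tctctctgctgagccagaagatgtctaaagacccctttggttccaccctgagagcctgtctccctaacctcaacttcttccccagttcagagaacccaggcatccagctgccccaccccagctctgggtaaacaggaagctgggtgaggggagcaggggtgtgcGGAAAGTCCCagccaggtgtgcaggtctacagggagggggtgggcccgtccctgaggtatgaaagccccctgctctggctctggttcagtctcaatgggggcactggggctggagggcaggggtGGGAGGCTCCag
TNFRSF18: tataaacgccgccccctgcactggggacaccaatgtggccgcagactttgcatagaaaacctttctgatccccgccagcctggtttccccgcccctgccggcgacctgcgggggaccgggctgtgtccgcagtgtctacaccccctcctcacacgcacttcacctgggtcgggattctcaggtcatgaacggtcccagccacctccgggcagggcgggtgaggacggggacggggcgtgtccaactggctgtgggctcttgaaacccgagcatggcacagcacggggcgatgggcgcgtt
TNFRSF1B: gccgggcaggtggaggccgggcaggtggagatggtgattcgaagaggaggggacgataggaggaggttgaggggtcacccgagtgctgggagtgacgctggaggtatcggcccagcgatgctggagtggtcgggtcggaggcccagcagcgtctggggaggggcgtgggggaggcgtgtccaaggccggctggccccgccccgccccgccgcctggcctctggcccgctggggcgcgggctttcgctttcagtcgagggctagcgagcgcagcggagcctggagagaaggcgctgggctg
TNFRSF11A: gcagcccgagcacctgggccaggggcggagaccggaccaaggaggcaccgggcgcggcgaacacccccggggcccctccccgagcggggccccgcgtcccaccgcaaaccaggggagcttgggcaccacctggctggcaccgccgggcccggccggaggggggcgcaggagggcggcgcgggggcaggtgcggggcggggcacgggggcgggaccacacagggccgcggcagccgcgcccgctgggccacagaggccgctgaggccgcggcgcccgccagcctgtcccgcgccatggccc

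The kB motif was searched on both strands, as was the AP-1 motif TGANTCA, and no match of one overlapped a match of the other. In the table of 35116 promoters, 11.3% held a kB match and 7.71% an AP-1 match. Of the 17 tested members 10 had a promoter in the table, of which 2 held kB matches (LTB with 2, TNFRSF14 with 3) and 1, FAS, held an AP-1 match. The LTB matches began 86 bases before and 38 bases after the start site. The LTB window was poor in CG dinucleotides, with 2, whereas TNFRSF18 held 23, TNFRSF1B 27 and TNFRSF11A 37, against a median of 14 over all promoters in the table. A match is a string of letters and no measured site.

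In WT cells, 9 of the 17 tested members were lower than in TKO (52.9%, against 23.9% of all tested genes) and 3 were higher (17.6%, against 25.9%). The median change of the 17 was -0.24, and that of all tested genes was -0.01. In F1295A, 10 members fell (21.8% of all genes fell) and 2 rose (23.9% of all genes rose), with a median of -0.35 beside -0.0. In D1240A, 6 fell (21.2% of all genes) and 2 rose (23.3%), with a median of -0.14 beside 0.01. Without D1240A replicate 2, 10 members and 6037 of 14332 genes were called in D1240A, the added members being TNFRSF4 (-0.68, adjusted p = 0.01) and TNFSF9 (0.26, 0.017). TNFRSF18, TNFRSF1B, TNFRSF12A, TNFRSF10A, TNFRSF21 and CD70 were lower than TKO in all 3 vector lines, and TNFRSF11A and TNFRSF1A were higher in all 3. TNFSF9, TNFSF10, TNFRSF10B and TNFRSF14 were called in none of these 3 comparisons. With no filter on level, 35 members were tested, and the counts of higher members rose more than those of lower ones: 6 higher and 10 lower in WT (13.3% and 11.4% of all genes then tested), 5 and 7 in D1240A (11% and 9.78%), and 6 and 9 in F1295A (11.4% and 10.1%).

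**Figure D2:**
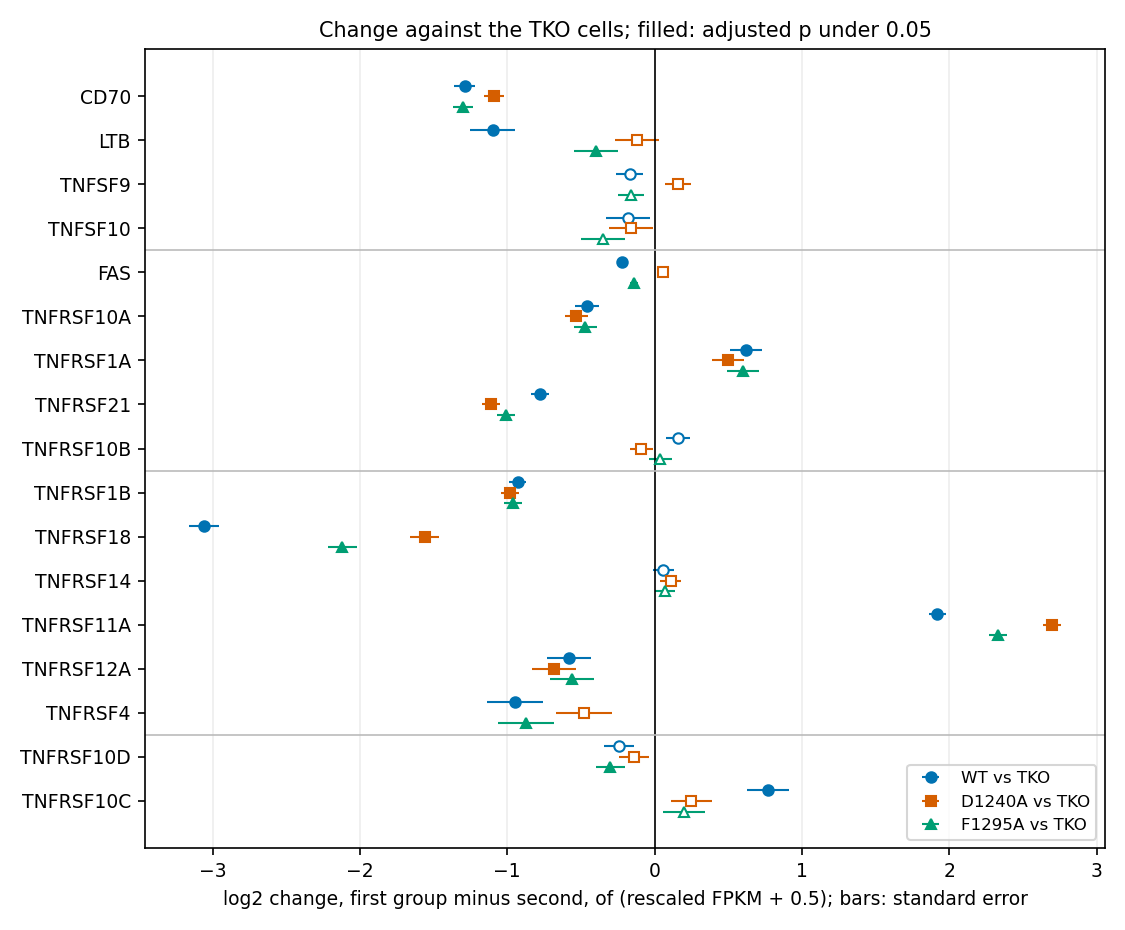
Log2 change (± SE) of each tested member in WT, D1240A and F1295A against TKO, by role, with filled symbols for an adjusted p under 0.05. TNFRSF18 lies furthest left (-3.06 in WT) and TNFRSF11A furthest right (2.7 in D1240A), and TNFRSF1B lies between -0.98 and -0.93 in all 3.

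Among the ligands, CD70, which engages CD27 on lymphocytes, fell in every vector line. CD70 (ENSG00000125726, chromosome 19, 6583183 to 6604103, minus strand) measured 18.8, 18.6 and 19.99 FPKM in TKO, 7.09, 7.21 and 8.27 with wild-type NSD2, 8.78, 8.81 and 8.64 with D1240A and 6.87, 7.53 and 8.0 with F1295A. All 9 vector libraries lay below all 3 TKO libraries. The change was -1.29 ± 0.07 in WT (adjusted p = 2.5e-08), -1.09 ± 0.07 in D1240A (1.4e-07) and -1.3 ± 0.07 in F1295A (2.9e-08), and without D1240A replicate 2 it was -1.09 in D1240A. Its receptor CD27 was at most 0.32 FPKM in any library.

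LTB, lymphotoxin beta, which joins lymphotoxin alpha on the cell surface to engage LTBR, was lowest in WT. LTB (ENSG00000227507, chromosome 6, 31580525 to 31582522, minus strand) measured 5.06, 4.13 and 5.31 FPKM in TKO, 2.32, 1.91 and 1.72 with wild-type NSD2, 4.90, 3.45 and 4.92 with D1240A and 4.12, 3.05 and 3.45 with F1295A. The WT libraries lay below all others, the D1240A libraries overlapped TKO, and F1295A lay just under TKO without overlap. LTB fell in WT (-1.10 ± 0.15, adjusted p = 7.9e-05), and in D1240A its change was -0.12 ± 0.15 (0.54), or 0.03 without replicate 2. The fall in F1295A (-0.40 ± 0.15, adjusted p = 0.047) was lost under 9 of the 23 alternatives, among them on the values as deposited (0.075) and without TKO replicate 1 (0.12), TKO replicate 3 (0.14), WT replicate 2 (0.059), F1295A replicate 2 (0.16) or F1295A replicate 3 (0.1). Its partner LTA stayed at or under 0.11 FPKM, and its receptor LTBR was listed at 0 in all 12 libraries.

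TNFSF9, the ligand of the costimulatory receptor 4-1BB, and TNFSF10 (TRAIL), which triggers the death receptors TNFRSF10A and TNFRSF10B, were called in no comparison with TKO. TNFSF9 alone of the pair was called in D1240A when replicate 2 was left out. TNFSF9 had means of 3.85 FPKM in TKO, 3.36 in WT, 4.39 in D1240A and 3.38 in F1295A. TNFSF10 had means of 2.81, 2.43, 2.45 and 2.09 FPKM in the same order, with overlapping groups except for F1295A, which lay below TKO (-0.35 ± 0.15, adjusted p = 0.083). That difference was called under 5 of the 23 alternatives. With all libraries the adjusted p was 0.01 with neighbours' medians subtracted, and on the values as deposited it was just under the threshold, while it was 0.049 without TKO replicate 1 and 0.04 without WT replicate 2.

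Of the death domain receptors, FAS, the receptor of Fas ligand, changed by at most 1.22-fold in the 6 comparisons. Its libraries are given because it was the most abundant member, a choice made after they were seen. FAS (ENSG00000026103, chromosome 10, 88990582 to 89015785, plus strand) measured 107, 109 and 109 FPKM in TKO, 92.3, 94.0 and 91.8 with wild-type NSD2, 113, 117 and 110.5 with D1240A and 101, 96.4 and 97.0 with F1295A. The 4 groups did not overlap, in the order WT, F1295A, TKO, D1240A. FAS fell by 0.22 in WT (SE 0.03, adjusted p = 4.9e-05) and by 0.14 in F1295A (SE 0.03, 0.0016), and in D1240A its change was 0.06 ± 0.03 (0.09), or 0.04 (0.26) without replicate 2. With the median of 50 neighbouring genes subtracted, the falls were -0.34 and -0.23. ACTA2, which overlaps FAS on the other strand, measured 0.784 to 1.79 FPKM.

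TNFRSF21 (DR6), a death domain receptor that limits lymphocyte responses, was lower in all 3 vector lines and lowest in D1240A. TNFRSF21 (ENSG00000146072, chromosome 6, 47231532 to 47309905, minus strand) measured 7.35, 7.22 and 6.77 FPKM in TKO, 4.0, 3.78 and 4.05 with wild-type NSD2, 3.19, 2.87 and 3.04 with D1240A and 3.31, 3.15 and 3.35 with F1295A. TKO was highest without overlap, WT came next, and D1240A and F1295A overlapped below it. The change against TKO was -0.78 ± 0.06 in WT, -1.11 ± 0.06 in D1240A (-1.08 without replicate 2) and -1.01 ± 0.06 in F1295A, with adjusted p of 1.1e-06, 8e-08 and 1.4e-07.

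The receptors of TNF itself went opposite ways. TNFRSF1A, the death domain receptor that most cells carry, rose from 4.61 FPKM in TKO to 7.35 in WT (0.62 ± 0.11, adjusted p = 0.00073), 6.82 in D1240A (0.50 ± 0.11, 0.0036) and 7.27 in F1295A (0.60 ± 0.11, 0.001). The rise in D1240A was lost on the values as deposited (0.36, adjusted p = 0.08) and was 0.62 without D1240A replicate 2. TNFRSF1B, the TRAF-binding TNF receptor of lymphocytes (ENSG00000028137, chromosome 1, 12167003 to 12209228, plus strand), had a change just under 1, and its libraries are given by a choice made after they were seen. TNFRSF1B measured 61.0, 61.9 and 65.6 FPKM in TKO, 35.0, 30.0 and 33.5 with wild-type NSD2, 32.8, 31.7 and 30.4 with D1240A and 31.6, 30.8 and 33.9 with F1295A. The 9 vector libraries overlapped one another and all lay below TKO. TNFRSF1B fell by 0.93 in WT, 0.98 in D1240A and 0.96 in F1295A (SE 0.06 each, adjusted p = 1.2e-07, 1.1e-07 and 1.1e-07), and the D1240A change was also -0.98 without replicate 2. The ratio of their mean levels, TNFRSF1B to TNFRSF1A, was 13.6 in TKO and 4.42 to 4.64 in the vector lines. TNF mRNA was listed at 0 in 11 of 12 libraries and at 0.0201 FPKM in the other.

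TNFRSF10A, a death receptor of TRAIL, fell from 11.7 FPKM in TKO to 8.35 in WT (-0.46 ± 0.08, adjusted p = 0.00069), 7.93 in D1240A (-0.53 ± 0.08, 0.00029) and 8.25 in F1295A (-0.47 ± 0.08, 0.00061), and without D1240A replicate 2 the D1240A change was -0.57. AC100861.1 overlaps it on the other strand at 7.38 to 12.1 FPKM and TNFRSF10A-AS1 at 2.04 to 3.84, and without a stated strand setting their reads cannot be told apart. TNFRSF10B, the other death receptor of TRAIL, was called in none of the 6 comparisons, with means of 5.85 to 7.01 FPKM. RHOBTB2 overlaps TNFRSF10B on the other strand at 6.14 to 10.1 FPKM, so the same limit on strand holds for TNFRSF10B. The change of TNFRSF10B in D1240A against WT lay close to the threshold (-0.25 ± 0.08, adjusted p = 0.052). With all libraries that difference was called under median-ratio scaling (0.048), with a filter at 1 FPKM (0.047) and with neighbours' medians subtracted (0.042), and without D1240A replicate 2 it was -0.21 (0.14). Without D1240A replicate 3, TNFRSF10B was higher in WT than in TKO (0.16, adjusted p = 0.039) and lower in D1240A than in TKO (-0.18, 0.049) and WT (-0.35, 0.007). The decoy receptors of TRAIL were low. TNFRSF10C rose in WT, to 0.806 FPKM from 0.265 (0.77 ± 0.14, adjusted p = 0.00057), or by 1.31 with a pseudocount of 0.1 and 0.51 with a pseudocount of 1. TNFRSF10C was tested only through its WT level, so that rise is given as a description. TNFRSF10D fell in F1295A, to 1.91 FPKM from 2.48 (-0.30 ± 0.10, adjusted p = 0.029), a call lost under 5 alternatives, 3 of which left out TKO replicate 1 (0.12), F1295A replicate 1 (0.079) or F1295A replicate 2 (0.087). These TRAIL receptors are close copies of one another, so the split of shared reads between them is uncertain.

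The TRAF-binding receptors held the largest changes in both directions. TNFRSF18 (GITR), a costimulatory receptor of T cells (ENSG00000186891, chromosome 1, 1203508 to 1206691, minus strand), measured 36.2, 34.4 and 35.5 FPKM in TKO, 3.57, 3.37 and 4.52 with wild-type NSD2, 12.7, 10.2 and 12.2 with D1240A and 7.07, 7.83 and 8.47 with F1295A. The 4 groups formed separate steps, TKO highest, then D1240A, F1295A and WT. Against TKO the change was -3.06 ± 0.10 in WT (adjusted p = 6.7e-10), -1.56 ± 0.10 in D1240A (2.7e-07, or -1.47 without replicate 2) and -2.12 ± 0.10 in F1295A (1.9e-08). Its ligand TNFSF18 was listed at 0 in 11 of 12 libraries.

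TNFRSF11A (RANK), the receptor through which RANK ligand drives osteoclast formation, moved the other way. TNFRSF11A (ENSG00000141655, chromosome 18, 62325287 to 62391292, plus strand) measured 1.12, 1.3 and 1.08 FPKM in TKO, 5.52, 6.07 and 5.81 with wild-type NSD2, 10.4, 10.2 and 10.4 with D1240A and 8.07, 7.90 and 7.70 with F1295A. The 4 groups again formed separate steps, here with TKO lowest and D1240A highest. The change was 1.92 ± 0.06 in WT (adjusted p = 6.2e-10), 2.7 ± 0.06 in D1240A (7.3e-11, or 2.72 without replicate 2) and 2.33 ± 0.06 in F1295A (1.7e-10). Its ligand TNFSF11 was listed at 0 in all 12 libraries, and the decoy of that ligand, TNFRSF11B (osteoprotegerin), was at most 0.0998 FPKM.

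**Figure D3:**
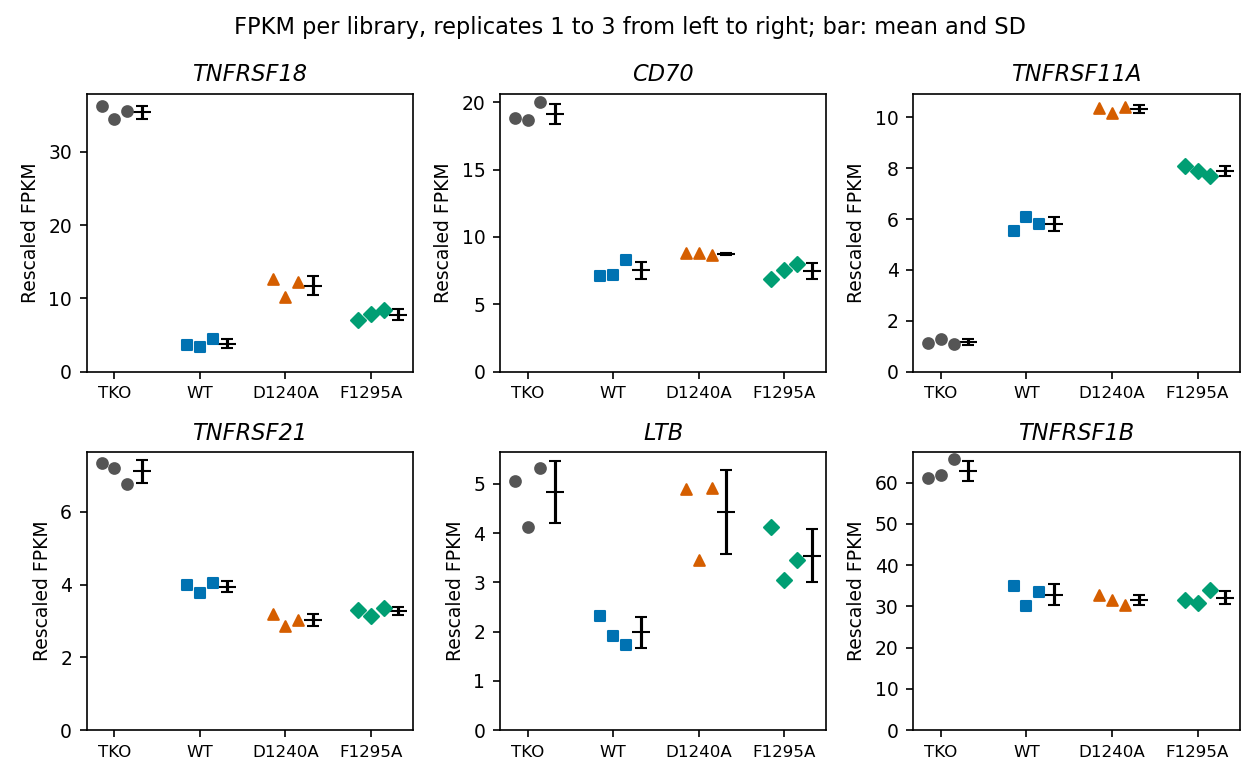
Rescaled FPKM of 6 members in each library (linear axis from 0), replicates 1 to 3 from left to right in each group, with the mean and SD as a bar. TNFRSF18 steps down from 35.4 in TKO to 3.82 in WT and TNFRSF11A steps up from 1.17 to 10.3 in D1240A, while CD70 and TNFRSF1B lie at about the same level in the 3 vector lines and LTB is lowest in WT.

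TNFRSF12A (Fn14), the receptor of TWEAK, fell from 2.38 FPKM in TKO to 1.45 in WT (-0.58 ± 0.15, adjusted p = 0.007), 1.29 in D1240A (-0.68 ± 0.15, 0.0032, or -0.75 without replicate 2) and 1.46 in F1295A (-0.56 ± 0.15, 0.01). TNFRSF4 (OX40), whose gene stands next to TNFRSF18, fell in WT and F1295A, at 0.751 FPKM in TKO, 0.147 in WT, 0.414 in D1240A and 0.183 in F1295A. At that level the size of its change rests on the pseudocount: in WT it was -0.95 ± 0.19 (adjusted p = 0.0014), -1.82 with a pseudocount of 0.1 and -0.61 with 1. TNFRSF4 was tested only through TKO and D1240A replicate 2, so its fall is given as a description. In D1240A the 3 libraries of TNFRSF4 were 0.337, 0.677 and 0.228 FPKM, the middle one being replicate 2, and without it the fall in D1240A was called (-0.68). TNFRSF14 (HVEM), a receptor with both stimulating and inhibiting partners, had means of 23.6 (TKO), 24.6 (WT), 25.6 (D1240A) and 24.8 (F1295A) FPKM, and none of its 6 comparisons was called (changes of 0.01 to 0.11, SE 0.07). All of its groups overlapped, though without D1240A replicate 3 TNFRSF14 was higher in D1240A than in TKO (0.20, adjusted p = 0.009).

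The 22 members that were not tested stayed at low levels. LTBR, TNFRSF6B, TNFSF8 and TNFSF11 were listed at 0 in all 12 libraries, and 10 of the 22 never reached 0.1 FPKM. The highest single value was 0.732 FPKM, of TNFSF13B (BAFF), a survival factor of B cells and plasma cells. TNFSF13B measured 0.229, 0.0767 and 0.0674 FPKM in TKO, 0.733, 0.464 and 0.428 with wild-type NSD2, 0.307, 0.345 and 0.506 with D1240A and 0.349, 0.381 and 0.339 with F1295A. TNFRSF8 (CD30), a receptor of activated lymphocytes, measured 0.459, 0.527 and 0.385 FPKM in TKO and 0.0494 to 0.169 in the 9 vector libraries. CD40, the receptor of T cell help, measured 0.0287, 0.0479 and 0.193 FPKM in TKO and 0.156 to 0.603 in the others. With no filter on level, TNFRSF8 fell in all 3 vector lines (-0.69 in WT), TNFSF13B rose in all 3 (0.74 in WT), and CD40 rose in D1240A (0.71) and F1295A (0.59). TNFRSF19 also rose in all 3, by 0.23, 0.26 and 0.24 in WT, D1240A and F1295A, and TNFSF4, the ligand of TNFRSF4, rose in WT (0.22, adjusted p = 0.011). TNFRSF11B was higher in F1295A than in TKO (0.22, adjusted p = 0.00081) and WT (0.19, 0.031, with 0.321% of all genes then tested higher), and it was lower in D1240A than in F1295A (-0.21, 0.019, with 0.635% of all genes lower). These 6 were all of the untested members that passed the test in that fit. Per-library values are given for 3 of them, picked after they were seen, and the depth in reads is unknown.

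Against WT, D1240A had 5 members higher (29.4% of the 17, against 8.22% of all tested genes) and 2 lower (10.9% of all). Their median change was 0.05, beside 0.01. TNFRSF18 was higher in D1240A by 1.5 ± 0.10 (adjusted p = 3.9e-06), LTB by 0.98 ± 0.15 (0.0011), TNFRSF11A by 0.78 ± 0.06 (1.4e-05), TNFSF9 by 0.33 ± 0.09 (0.022) and FAS by 0.29 ± 0.03 (6e-05). TNFRSF21 (-0.33 ± 0.06, adjusted p = 0.004) and TNFRSF10C (-0.52 ± 0.14, 0.021) were lower, though TNFRSF10C was tested only through its WT level. Without D1240A replicate 2 the 5 and 2 calls remained, with changes of 1.60 for TNFRSF18, 1.13 for LTB, 0.79 for TNFRSF11A, 0.43 for TNFSF9, 0.27 for FAS, -0.30 for TNFRSF21 and -0.58 for TNFRSF10C. On the values as deposited, FAS (0.17, adjusted p = 0.15) and TNFSF9 (0.23, 0.29) were lost. The TNFSF9 call was also lost without WT replicate 1 (0.05) or 2 (0.081) or without D1240A replicate 1 (0.067) or 3 (0.078), and that of TNFRSF10C without WT replicate 1 (0.051), 2 (0.073) or 3 (0.055) or D1240A replicate 3 (0.067).

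Against WT, fewer members were called in F1295A. TNFRSF18, TNFRSF11A and LTB were higher (17.6% of the members, against 0.896% of all tested genes) and no member was lower (1.81% of all). An unadjusted p under 0.05 by limma was found for 6 members. Those shares are for adjusted p, and none of all genes is at hand for the unadjusted threshold. TNFRSF18 was higher by 0.95 ± 0.10 (adjusted p = 0.00082) and TNFRSF11A by 0.41 ± 0.06 (0.0068). On the values as deposited 89 of 14450 genes were called. TNFRSF18 was then the 1 member called, with TNFRSF11A at 0.39 (adjusted p = 0.1). LTB was higher by 0.70 ± 0.15 (adjusted p = 0.032), a call lost without any 1 of the 3 WT or 3 F1295A libraries (0.053 to 0.13). TNFRSF21 differed by -0.24 ± 0.06 (adjusted p = 0.078), with all 3 F1295A libraries below all 3 of WT. TNFRSF10C lay close to the threshold (-0.57 ± 0.14, adjusted p = 0.051), also without overlap, and was called as lower under 4 alternatives. TNFRSF10C was tested only through its WT level.

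Between the substitutions, D1240A was higher than F1295A for TNFRSF18 (0.56 ± 0.10, adjusted p = 0.012), TNFRSF11A (0.37 ± 0.06, 0.0092) and FAS (0.21 ± 0.03, 0.0026), as were 3.0% of all tested genes, and lower for none (3.09% of all). Their changes without D1240A replicate 2 were 0.65, 0.38 and 0.19, and TNFSF9 was then called too (0.43, adjusted p = 0.016). On the values as deposited 63 of 14450 genes were called and no member was, with 0.47 for TNFRSF18 (adjusted p = 0.17), 0.28 for TNFRSF11A (0.22) and 0.12 for FAS (0.43). There 2 members had an unadjusted p under 0.05 by limma, a threshold for which no share of all genes is at hand. TNFRSF18 (adjusted p = 0.071) and FAS (0.068) also missed the threshold with only the 2 groups in the fit. TNFRSF11A and TNFRSF18 were the 2 members called in all 6 comparisons. For TNFRSF18, WT lay furthest from TKO and D1240A nearest, while for TNFRSF11A D1240A lay furthest and WT nearest. NSD2 mRNA was highest in D1240A and lowest of the vector lines in F1295A, and its part in these differences was not tested.

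Neither CD70 nor TNFRSF1B was called between any pair of vector lines, though CD70 lay close to the threshold. CD70 differed by 0.21 ± 0.07 between D1240A and WT (adjusted p = 0.051) and by 0.22 ± 0.07 between D1240A and F1295A (0.081), with no overlap of libraries in either, and by -0.01 ± 0.07 between F1295A and WT. The difference between D1240A and WT was called under 7 of the 23 alternatives. With all libraries these included a filter at 1 FPKM (0.046) and neighbours' medians subtracted (0.037), and the adjusted p was 0.018 without WT replicate 3. Without D1240A replicate 2 the CD70 differences were 0.20 (0.11) and 0.21 (0.18). TNFRSF1B differed by -0.05, -0.03 and -0.02 (SE 0.06) in the 3 pairs.

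**Figure D4:**
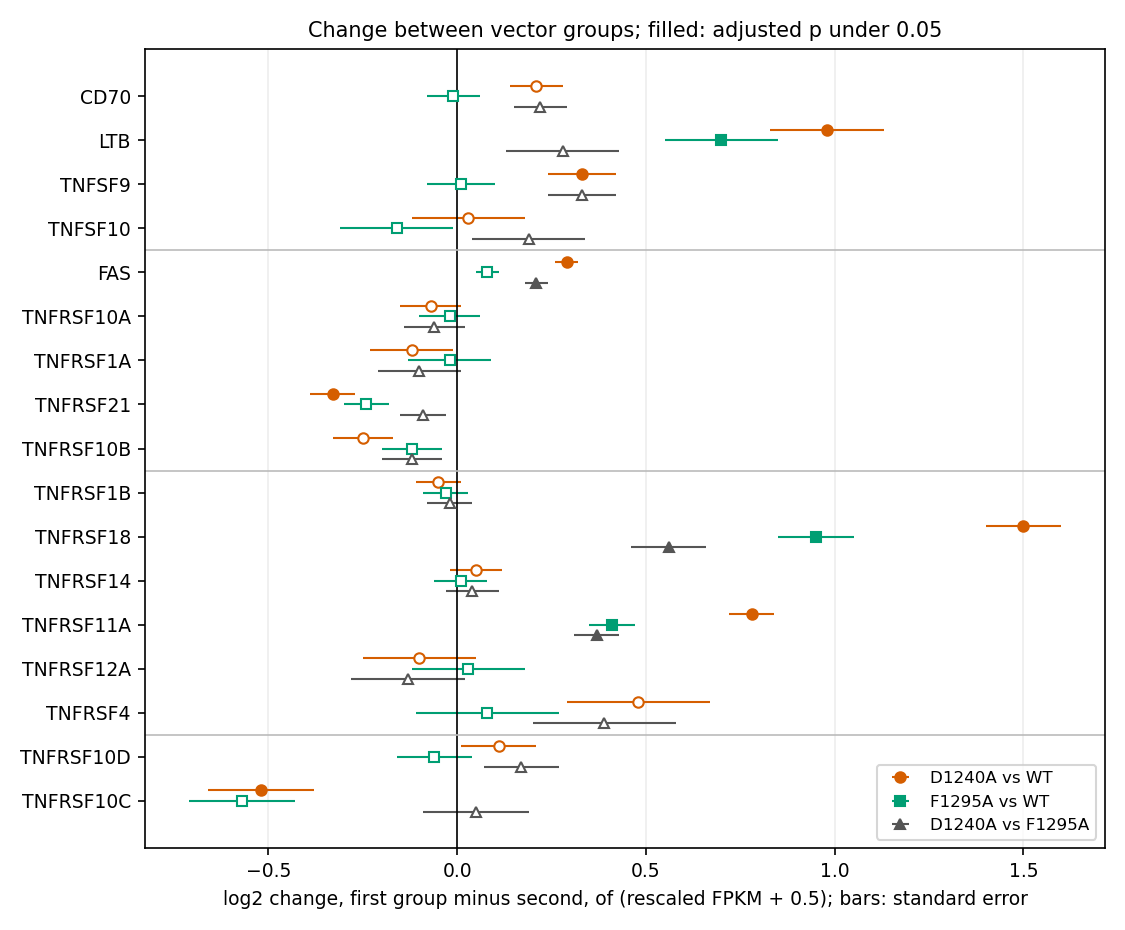
Log2 change (± SE) of each tested member in D1240A against WT, F1295A against WT and D1240A against F1295A, by role, with filled symbols for an adjusted p under 0.05. TNFRSF18 (1.5, 0.95 and 0.56) and TNFRSF11A (0.78, 0.41 and 0.37) lie right of 0 in all 3 pairs, and TNFRSF1B stays within 0.05 of 0.

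The members' changes were set beside those of the genes around them. Among the 20 tested genes nearest to TNFRSF18, the median change in WT against TKO was 0.02 (range -1.21 to 1.79), and no neighbour changed as much as TNFRSF18. The gene before it, C1orf159, had a change of -0.03, and the gene after it is TNFRSF4. Around TNFRSF11A the median was -0.15 (-1.96 to 0.81), and its direct neighbours RELCH (-0.52) and ZCCHC2 (-0.32) both fell. Around CD70 the median was -0.08 (-0.74 to 2.08), with its neighbours TNFSF9 and the pseudogene RPL7P50 not called, but DENND1C (2.08), farther off, changed more than CD70 and TUBB4A (0.96) rose too. Around LTB the median was -0.08 (-1.07 to 0.2), with LY6G5C falling by 1.07, close to the fall of LTB. Around TNFRSF21 it was 0.04 (-0.41 to 0.76), and around TNFRSF1B 0.04 (-0.49 to 1.68), where FHAD1 (1.68) and KAZN (1.14) rose by more than TNFRSF1B fell. The genes beside LTB, NFKBIL1 (0.10) and PRRC2A (0.15), and those beside TNFRSF21, ENPP4 (0.37) and CD2AP (0.09), lay above 0 while the members fell. Of the called changes of members, that of FAS alone moved by over 1.5 times when the neighbours' median was subtracted.

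**Figure D5:**
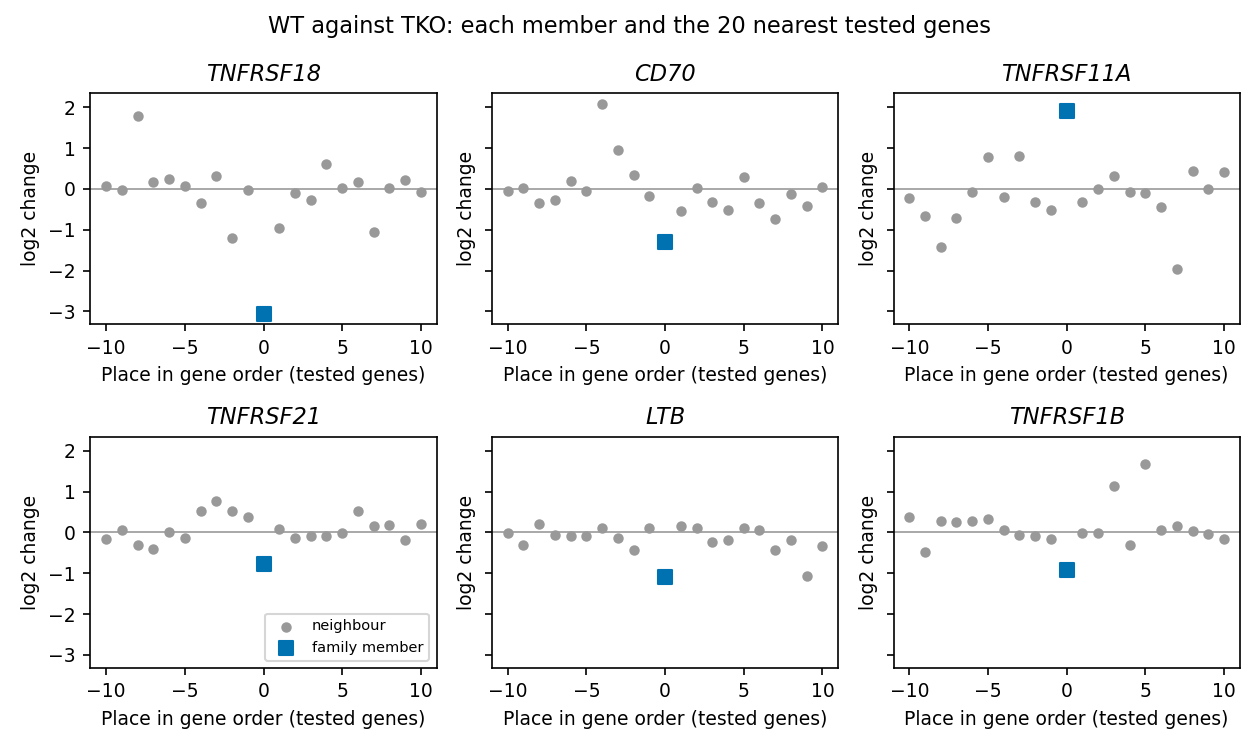
Log2 change in WT against TKO of 6 members (squares) and of the 10 tested genes on either side of each (dots), placed by gene order. TNFRSF18 at -3.06 lies below all of its neighbours (-1.21 to 1.79), and TNFRSF11A at 1.92 lies above its neighbours (up to 0.81).

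The genes that carry the signal of these receptors were nearly all expressed. Of 28 genes of the receptor complexes (adaptors, kinases, ubiquitin enzymes and their antagonists), all were tested, and 12 fell and 4 rose in WT against TKO, where 23.9% and 25.9% of all tested genes did. In D1240A 10 fell and 7 rose (21.2% and 23.3% of all genes), or 8 and 6 without replicate 2, and in F1295A 9 fell and 4 rose (21.8% and 23.9% of all genes). On the values as deposited 1 of the 28 rose in each vector line, while 9 fell in WT, 14 in D1240A and 9 in F1295A. Of 14450 genes 5297, 5396 and 4810 were then called, in either direction. The list's medians were -0.1, -0.04 and -0.07. Several of the calls were unstable. RBCK1, called in WT, was lost under 9 of the 23 alternatives. In D1240A TRAF5 was lost under 12, FADD under 11 and TAB1 under 10. In F1295A TRAF5 was lost under 15 and UBE2N under 6. TAB3, a subunit of the TAK1 kinase complex, fell from 19.4 to 8.81 FPKM in WT (-1.09 ± 0.08), but by 0.27 once the median of its neighbours was subtracted. The adaptors TRAF4 (-0.67 ± 0.07) and TRAF2 (-0.48 ± 0.04) and the death domain kinase RIPK1 (-0.51 ± 0.06) also fell in WT. TRAF3, the brake on the alternative NF-kB pathway, was not called in any comparison, with means of 32.0 to 35.5 FPKM.

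Of 11 genes of NF-kB and the IKK complex, 3 rose and 4 fell in WT against TKO, where 25.9% and 23.9% of all tested genes did. The kinase subunit CHUK rose by 0.79 ± 0.05, the alternative pathway subunit NFKB2 by 0.47 ± 0.03 to 211 FPKM, and REL by 0.58 ± 0.10, whereas the regulatory subunit IKBKG fell by 0.71 (SE 0.05). With neighbours' medians subtracted these were 0.47 for CHUK, 0.11 for NFKB2 and -0.19 for IKBKG. In D1240A 3 rose and 2 fell (23.3% and 21.2% of all genes), with the same counts without replicate 2. In F1295A 3 rose and 4 fell (23.9% and 21.8% of all genes). Some of these calls were unstable too. IKBKB, called in WT, was lost under 10 of the 23 alternatives, NFKB1 in F1295A under 7 and NFKBIA in D1240A under 5. Of 3 proteases that cut ligands and receptors of the family, ADAM17 rose (0.34 ± 0.06) and ADAM10 fell (-0.25 ± 0.04) in WT, and FURIN was not called. Of 7 family genes with other names 3 were tested, of which EDA2R (0.0447 to 1.56 FPKM, 1.91 ± 0.12) and its ligand EDA (0.342 to 1.25 FPKM, 1.06 ± 0.16) rose in WT and RELT fell (-0.44 ± 0.07). With a pseudocount of 0.1 the rises were 3.52 for EDA2R and 1.65 for EDA.

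In D1240A against WT, 8.22% of all tested genes were higher and 10.9% lower. Of the 28 receptor complex genes 8 were higher, as were 2 of the 11 NF-kB genes, and none was lower. The complex genes were BIRC3 (0.54), TNFAIP3 (0.42), TRAF1 (0.39), CYLD (0.29), RIPK1 (0.28), TRAF4 (0.21), MAP3K14 (0.20) and TNIP1 (0.14), and the NF-kB genes were the inhibitors NFKBIE (0.37) and NFKBIA (0.28). BIRC3, an ubiquitin ligase of the TNF receptor complex, measured 131 FPKM in D1240A and 90.4 in WT (SE 0.03, adjusted p = 1.4e-06), and TNFAIP3 (A20), an enzyme that ends the signal, 98.7 and 73.7 (SE 0.03, 3.3e-06). On the values as deposited 2 of the 28, none of the 11 and 1608 of 14450 genes were called. Without D1240A replicate 2 it was 6, 2 and 2240 of 14332. The TRAF4 call was lost under 16 of the 23 alternatives, among them median-ratio scaling (adjusted p = 0.053) and 8 fits with 1 library left out, and the TRAF1 call under 6, 3 of which left out WT replicate 1 (0.078), WT replicate 3 (0.072) or D1240A replicate 2 (0.069). Against F1295A, 5 of the 28 were higher in D1240A (BIRC3, TNFAIP3, TRAF1, TNIP1 and MAP3K14, by 0.14 to 0.45), where 3.0% of all tested genes were. It was 3 without D1240A replicate 2 (376 of 14332 genes called) and none on the values as deposited (63 of 14450). The MAP3K14 call was lost under 17 of the 23 alternatives, including each of the 12 fits with 1 library left out, and the TRAF1 call under 10 (6 of those fits). F1295A against WT gave no call among the 28 or the 11, where 0.896% of all tested genes were higher and 1.81% lower. Genes in these last 3 comparisons were named after their values were seen.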

How the data were processed

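Poly(A) RNA of 12 libraries, 3 in each of 4 groups, was read from 1 table. The submitters' processing notes name Trimmomatic 0.36, FastQC 0.11.4, STAR 2.7.9a with GRCh38, RSEM 1.3.1 and DESeq2. The values are FPKM by the authors, deposited to 2 decimals. The unit was read from the values and the tools, since no header names it, and neither the annotation release nor whether strand was used in counting is stated in the labels. Depth is therefore unknown, no counting error is given, and precision rests on 3 replicates a group. The labels call these biological replicates and say no more of their source, so p-values measure the spread between these samples.

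Names and coordinates came from GENCODE release 29 (GRCh38), which held 56996 of 60504 identifiers. Structural RNA classes (7089 features) were left out. A trimmed mean of log2 ratios (30% off each side, genes of at least 1 FPKM) rescaled the libraries, so a change shared by all genes cannot be seen. The 14391 genes that reached 0.5 FPKM in 3 or more libraries entered 1 limma 3.58.1 model (R 4.3.3) of log2(FPKM + 0.5) on group, with a variance trend. A call is a Benjamini-Hochberg p under 0.05, adjusted over all genes tested. The steps were tested on simulated data in which few genes changed, all in WT and none at a low level, with the same spread in every library. Such data do not cover the low members or a library like D1240A replicate 2. A fold on this scale understates changes of low genes.

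Members and lists were chosen with earlier results of these data known. Values in every library were given for members called with a log2 change of at least 1 and a mean of at least 2 FPKM in a group, and for each list the up to 4 called genes with the largest change in WT against TKO and the same level were named. For members with values in every library, the nearest tested gene on each side was given. Promoters and motif counts came from RefSeq (GRCh38.p14). Alternatives were other scalings, pseudocounts and filters, structural RNAs kept, a replicate block, only the compared groups, library weights, neighbours' medians subtracted, and each library left out. Other software was Python 3.11.15, numpy 2.4.6, pandas 2.3.3 and matplotlib 3.10.9.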

Additional observations from a re-analysis of the deposited data

How the results depend on the processing

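The fits were repeated under 23 alternatives, 12 of which left out 1 library. Of 45 called changes of members, 34 stayed called under every alternative that tested the gene, 11 were lost under at least 1, and none reversed. Of 57 member results that were not called, 12 were called under at least 1 alternative. Depth is unknown, so the counting error of values under 1 FPKM cannot be given. With each library left out in turn, every count of called members stayed within 1.5 times its value. That limit was reached in F1295A against WT, where 2 of the 3 calls remained without any 1 WT or F1295A library. Over all genes, from 149 of 14287 to 256 of 14323 were called in those fits, against 390 of 14391 in the main fit. In D1240A against WT the 7 calls became 5 without WT replicate 1 or 2. Over all genes, 2756 of 14391 became 1723 of 14287 and 1951 of 14301. On the values as deposited the median of all genes moved to -0.12 in D1240A against TKO and to -0.10 in D1240A against WT. In F1295A against WT 1 member and 89 of 14450 genes were then called, against 390 of 14391 genes in the main fit. In D1240A against F1295A 0 members and 63 of 14450 genes were called, against 877 of 14391. There 2 members had an unadjusted p under 0.05 by limma, a threshold for which no share of all genes is at hand. With library weights 5 members and 613 of 14391 genes were called in F1295A against WT. With only the compared groups 1 member and 91 of 14391 genes were called in D1240A against F1295A. The cause was not tested. With the filter at 1 FPKM TNFRSF4 and TNFRSF10C were not tested. Of the 15 members then tested, 2 were higher and 8 lower in WT than in TKO, where 6736 of 12667 genes were called. Of the list genes, MAP3K7 and TNIP1, higher in D1240A than in TKO (0.12 each), reversed to -0.03 each on the values as deposited, and to -0.03 and -0.24 with neighbours' medians subtracted.

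Same-numbered libraries deviated together weakly or not at all (18 pairs, r from -0.0531 to 0.085). Pairs with different numbers spanned -0.114 to 0.0802. Between TKO and D1240A the same-numbered r were 0.0582, 0.0624 and 0.0709, with at most -0.00923 for the others. Between TKO and WT they were 0.0435, 0.0604 and 0.035, with at most -0.00135 for the others. Between WT and F1295A they were -0.0242, -0.00889 and 0.0286, within the span of the others. Whether the numbers mark pairs is therefore unknown. With the replicate block, 12, 8 and 13 members were called in WT, D1240A and F1295A against TKO. Over all 14391 genes tested it was 6981, 6189 and 6353. Between vector lines 8 members were called in D1240A against WT (2360 of all genes), 3 in F1295A against WT (272) and 3 in D1240A against F1295A (525). With the block, TNFSF10 was called in F1295A against TKO (adjusted p = 0.014) and CD70 in D1240A against WT (0.037), and TRAF4 was no longer called in D1240A against WT (0.064).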
